A study of Bos grunniens with 12 samples.

Results

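The peaks described here are the m6A peaks of the yak testis that the authors called different between 2 ages and that their annotation places in a 5′ UTR or in the first exon of a transcript. They number 311 of the 1438 differential peaks (21.6%), and they lie in or next to 287 of the 1207 genes with a differential peak. Testes came from 3 yaks of 1.5 years, before sexual maturity and taken by castration (Y group), and from 3 yaks of 5 years, after sexual maturity and taken from animals that were slaughtered (per the record) or euthanized (per the article) (M group). Each testis gave an immunoprecipitated (IP) library, enriched with an antibody against m6A, and an input library of the same fragmented mRNA. Age and the way the tissue was obtained cannot be told apart. The letters follow the article and the ages in the sample titles, since the deposited record swaps them and its developmental stage field names the opposite stage. Elongating spermatids form late in spermatogenesis, and their markers went against the stage given for these ages. TNP1, a transition protein of spermatid chromatin, had FPKM of 883, 852 and 879 in the input libraries labelled 1.5 years and 201, 641 and 550 in those labelled 5 years, so every library labelled 1.5 years was higher. Every difference between ages below is by the labelled age, and its direction rests on that label.

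N6-methyladenosine (m6A) is the most common internal modification of mRNA. It is written by the METTL3 and METTL14 complex, removed by FTO and ALKBH5 and bound by YTH domain proteins, and in mammals most of it lies near the stop codon and in the 3′ UTR. In the 5′ UTR, m6A is known to take part in translation that does not need the cap-binding protein, through the initiation factor eIF3. An adenosine next to the cap can carry a related mark, m6Am, which PCIF1 writes and which antibodies against m6A also bind, so a peak at the start of a transcript can hold either mark.

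These peaks were selected on the measured difference between ages in the IP and input reads and on the annotation of the peak. The peak table holds positions and annotation alone, with no size of the difference and no value per library. It therefore does not say at which age a given peak was stronger. For the differential peaks as a whole, the article reports that most were up-regulated after sexual maturity and a minority down-regulated. Which of the peaks described here went each way cannot be read from the peak table. The values by library below are FPKM (mapped fragments scaled for transcript length and for the size of the library) of the host genes in the 6 input libraries. They measure the transcript and not its methylation. The host gene is the gene under which the table lists a peak. Whole testis was sequenced, so fewer cells of a type and less RNA per cell cannot be told apart.

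The 311 peaks fall into 3 classes. The 5′ UTR class holds 90 peaks of 85 genes, exon 1 of a transcript with more exons holds 150 peaks of 141 genes, and exon 1 of a single-exon transcript holds 71 peaks of 62 genes. Only ZFHX3, a large homeodomain and zinc finger transcription factor, has both a 5′ UTR peak and an exon 1 peak. The peaks are spread over 31 chromosomes, with 16 on the X and 1 on the Y chromosome.

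Distance was measured on the genome from the annotated start of the host gene, with introns included. The median distance was 299 bp (25th percentile 97.5, 75th percentile 1057). The peak covered the start itself in 42 cases, lay up to 300 bp after it in 110 and over 300 but at most 1000 bp after it in 72. A further 51 peaks lay beyond 1000 and up to 10000 bp after the start, 32 lay farther than that and 4 lay before it. Within 1000 bp of the start were 72.0% of these peaks, beside 3.73% of the other 1127 differential peaks. This gap follows from the choice of peaks by their annotation and is given as a description. Of the 265 peaks with a distance above 0, 103 had a distance at a multiple of 50 bp or up to 3 bp below it. The same held for the widths of 154 of the 311 peaks. Many positions in the table, but not all, thus fall on steps of about 50 bp.

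The classes differed in how close to the start they lay. Exon 1 peaks of transcripts with more exons were nearest, with a median of 198.5 bp and 80% within 1000 bp. For 5′ UTR peaks the median was 346.5 bp with 64.4% within 1000 bp, and for single-exon transcripts it was 488 bp with 64.8%. The 5′ UTR class was spread most widely, since 23 of its 90 peaks covered the start and 16 lay more than 10000 bp from it. A 5′ UTR can be cut by introns or belong to a transcript that starts downstream of the listed gene start, and the table names no transcript for these 90 peaks.

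**Figure D1:**
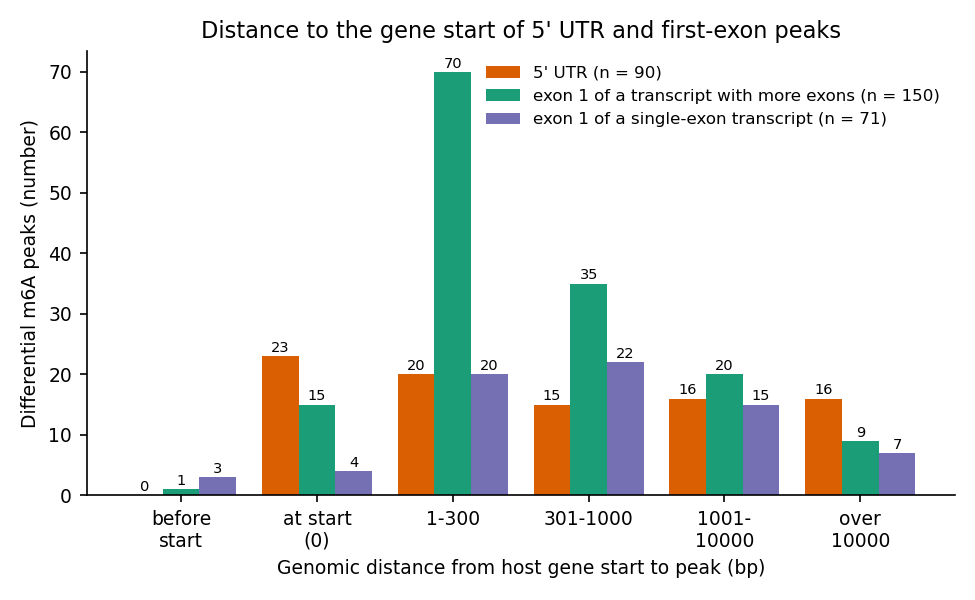
Number of differential m6A peaks (vertical axis) by genomic distance in bp from the host gene start to the peak (horizontal axis, in bins), for the 5′ UTR class and both exon 1 classes. Exon 1 peaks of transcripts with more exons gather in the bin of 1 to 300 bp with 70 peaks, while the 5′ UTR class has 23 peaks at the start and 16 beyond 10000 bp.

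Several peaks that cover a start site are listed under well-known regulators. METTL5, which methylates the small-subunit ribosomal RNA, has a 5′ UTR peak of 200 bp (chromosome 2, 120958921 to 120959120) over its start. The gene as listed starts at 120958936 on the minus strand, so most of this peak lies before it. CDKN1A, an inhibitor of cyclin-dependent kinases, has an exon 1 peak of 290 bp there (chromosome 24, 25729826 to 25730115). TAF4B, a subunit of the transcription factor TFIID used in germ cells, has an exon 1 peak of 199 bp at 0. SQLE, squalene epoxidase of cholesterol synthesis, has a 5′ UTR peak of 353 bp at 0. It also reaches beyond the listed gene, from 2621765 to 2622117 over a start at 2621956. No transcript is named for the METTL5 and SQLE peaks, so the 5′ UTR need not be that of the listed gene. CHD9, a chromatin remodeller, and TENT4B, a poly(A) polymerase, have peaks of 250 bp at their starts. With 42 peaks tied at 0, no 3 nearest peaks can be singled out, and these genes were chosen after the list was seen.

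The farthest peaks were all 5′ UTR entries. They are in FHOD3, a formin that organises actin, at 389863 bp, in the gene listed as NSMCE4A at 202006 bp and in the one listed as EGFLAM at 192328 bp. The NSMCE4A peak lies at the far end of a gene of 202112 bp. These positions are inside the gene or at its end as the table draws it, far from the start that the table uses.

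Widths ran from 144 to 280827 bp with a median of 349 bp, and 75.2% did not exceed 1000 bp. Width is also counted on the genome, so a peak joined over an intron includes that intron. Single-exon transcripts had 95.8% of their peaks at or under 1000 bp, and the 3 wider ones are listed under BNC2 (132100 bp), PWWP2A (16651 bp) and INHBA (10045 bp). That share was 71.3% for exon 1 of transcripts with more exons and 65.6% for the 5′ UTR class. Over 10000 bp were 34 peaks and over 100000 bp were 7. The 3 widest are listed under SGCD (280827 bp), DNM3 (205422 bp), a dynamin, and ANO10 (165268 bp). The genes listed as SGCD and ANO10 are 1011 and 402 bp long, so both peaks reach far beyond them. The exon of the SGCD peak is of another identifier under the same symbol. MAML1, a coactivator of Notch, has an exon 1 peak of 55432 bp, and ARID1A, a subunit of the SWI/SNF chromatin remodelling complex, has one of 26978 bp.

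**Figure D2:**
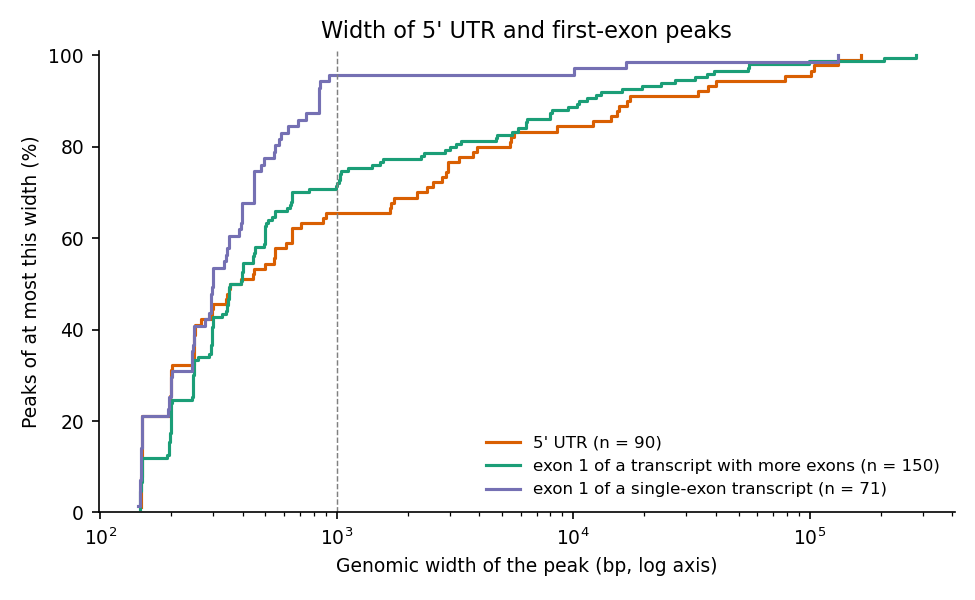
Percent of peaks (vertical axis) at or under a given genomic width in bp (horizontal axis, log scale) for the 5′ UTR class and both exon 1 classes, with a dashed line at 1000 bp. The single-exon curve reaches 95.8% at that line, while the 5′ UTR curve reaches 65.6%, and each class has at least 1 peak beyond 100000 bp.

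In a transcript with a single exon, exon 1 is the whole transcript, so these peaks need not lie near its start. Of the 71 peaks, 54 lie wholly within a host gene that owns the exon. The centre of the peak was in the first 3rd of the gene for 16, in the middle 3rd for 24 and in the last 3rd for 14. These host genes had a median length of 1341 bp. The class thus spans the transcript, from EFHC2 and ZNF146 at the start to MGAT2, an N-glycan processing enzyme, with its peak 1042 bp into a gene of 1341 bp. Among its hosts are genes whose coding sequence is known to lie in a single exon, such as the potassium channels KCNA2, KCNA3 and KCNA4, the frizzled receptor FZD1 and the insulin receptor substrate IRS1. RMI1, a partner of the BLM helicase, has 2 peaks, at 148 and at 1036 bp of its 1875 bp.

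Of the 221 exon 1 entries, 195 name an exon of the host gene and 26 name an exon of another gene or transcript, 6 of them a transcript listed without a gene. The peaks with an exon of the host gene were within 1000 bp of the start in 81.5% of cases, and the other 26 in 26.9%, with a median distance of 1784.5 bp. Several of the 26 lie in a short gene within or beside a longer host. The 3 peaks listed under NAPRT, the most of any host with FREM2, are all in the exon of TIGD5. Peaks listed under MCF2L2, BNIP2, ZBTB25, RNF123, SNUPN and SDR9C7 are in exons of B3GNT5, GCNT3, AKAP5, AMIGO3, IMP3 and ZBTB39. The peak of the MACF1 entry, 179525 bp from the start, is in the first of 9 exons of a gene without a symbol. The DYRK1A entry lies before the start of that kinase gene, at -54027 bp. The peak of INHBA, the activin beta A subunit, spans 10045 bp and starts 497 bp into the gene, in the exon of a transcript listed without a gene.

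The level of a listed host can differ from that of the gene that owns the exon. NAPRT (ENSBGRG00000005570) had FPKM of 0.637, 0.846 and 0.506 in the Y group and 1.84, 0.329 and 1.79 in the M group. TIGD5, a transposase-derived gene, had 4.11, 3.20 and 3.42 in the Y group and 6.43, 3.98 and 5.32 in the M group. TIGD5 was above NAPRT in all 6 libraries, and for both genes the libraries of the ages overlapped. Library preparation kept strand, but whether strand was used in counting is not given in the sources used here.

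Most hosts (265) carry 1 of these peaks, 20 carry 2, and FREM2 and NAPRT carry 3. Merging overlapping peaks of a gene leaves 305 peaks. Another differential peak outside the 5′ UTR and exon 1 was listed for 43 hosts, in the 3′ UTR for 12, in another exon at most 1000 bp wide for 26 and in a wider one for 13.

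The hosts with the most differential peaks show different layouts. FREM2 (ENSBGRG00000010780), a basement membrane protein gene with 26 exons on chromosome 15, has 6. Its exon 1 holds 3 of them, at 1445, 2542 and 3688 bp from the start, with 2 in exon 3 and 1 in exon 26. FAM20C (ENSBGRG00000025396), the Golgi kinase that phosphorylates secreted proteins, has 4. It has 5′ UTR peaks at 0 and 641 bp, 1 in exon 9 of 10 and 1 in the 3′ UTR at 36993 bp, so both ends of this gene are marked. ZFHX3 has 5, namely a 5′ UTR peak at 0, an exon 1 peak at 349 bp and 3 in exons 7 and 10 of 11. PCDHGA4 has 4, of which the 2 exon 1 peaks lie 46823 and 100912 bp from the listed start, in a clustered protocadherin locus, where alternative first exons follow one another. SH3BP4, an endocytic adaptor, has its 5′ UTR peak at 92769 bp and 3 more in exons 4 and 5. ARFGAP3, a GTPase-activating protein of the Golgi, has 5′ UTR peaks at 18 and 99 bp and a 3′ UTR peak. The remaining hosts with 3 or more are MACF1 with 5, and SOGA1, HAUS3, MED15, CHD9 and NAPRT with 3 each.

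The gene table sets how far a host can be named. In it, 3871 symbols stand on more than 1 identifier, 11160 identifiers in all, of 20953 genes. Among the 287 hosts, 158 have a symbol of their own, 125 share it with another identifier and 4 have none. Of the 125, 48 are not the lowest identifier of their symbol, and there the terms can point to a different protein. The host with the highest level, listed as SMIM33 (ENSBGRG00000012335), carries ubiquitin ligase terms, AFG1L (ENSBGRG00000007174) carries the FoxO signaling pathway, and ANO10 (ENSBGRG00000016843) carries protein serine/threonine kinase activity. In the RefSeq annotation of another yak assembly (Bosgru_T2T1.0), UBE2D2, FOXO3 and SNRK lie within 4 coding genes of SMIM33, AFG1L and ANO10, respectively. Roles are given below as known for the symbol, and a symbol on several identifiers is marked as shared where the host is first described below.

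Host genes were mostly of middle level. The median of the mean FPKM over the 6 input libraries was 3.82 (25th percentile 2.18, 75th percentile 6.37) for the 283 hosts with a value, and 85.2% lay between 1 and 10. It was 3.78 for all genes with a differential peak, 4.34 for the 12437 genes tested and 1.18 for all genes in the table. Since a peak can only be called in RNA that is present, these levels are tied to the choice of peaks. Only 9 hosts had a mean under 0.5 FPKM and were not tested, among them KCNA2 and HRAS (shared), and BNC2 (shared) was listed at 0 in every library.

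Among hosts of 5′ UTR peaks the highest means were those of TENT4B (20.7, shared symbol), RABL3 (18.6), PLCL2 (18.1, shared), HABP4 (17.2, shared), GNB1 (16.7), CCDC117 (16.2, shared), ASAP2 (15.0) and DONSON (13.5). Of these, GNB1 encodes a G protein beta subunit and DONSON a replication fork protein. RABL3, a small GTPase-like protein, had 20.0, 21.5 and 24.1 in the Y group and 9.95, 19.8 and 16.1 in the M group. Every M library of RABL3 was below every Y library, but the difference of -0.57 on the log2 scale did not pass the call.

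Among hosts of exon 1 peaks the highest were SMIM33 (36.3, shared), MGAT2 (18.5), CDKN1A (17.9, shared), TYSND1 (17.6, shared), CACUL1 (16.1), TMEM217 (15.7), ZNF628 (15.1) and TSC22D1 (12.4, shared). MGAT2 had 23.7, 21.3 and 22.1 in the Y group and 11.1, 17.5 and 15.4 in the M group, with the ages apart and a log2 difference of -0.63 (SE 0.19). CDKN1A had 16.6, 17.8 and 18.7 in the Y group and 14.0, 19.9 and 20.0 in the M group, with overlapping libraries and a log2 difference of 0.006 (SE 0.18).

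The ages were then compared in the input libraries, 3 against 3, with limma on log2(FPKM + 0.1). A call needs an unadjusted p under 0.05 and a log2 difference beyond 1 in either direction, and fold changes on this scale are understated for low genes. Of the 274 hosts tested, 22 were higher and 7 were lower in the M group by this call. Over all 12437 genes tested, 4.01% were higher and 5.25% lower, and 9.26% were called in either direction, beside 10.6% of the hosts. No host had an adjusted p under 0.05, as against 0.0322% of all genes, and the smallest among hosts was 0.058 in SLITRK2. At an unadjusted p under 0.05 alone, 83 hosts passed (68 higher, 15 lower), beside 25.1% of all genes (14.2% higher, 10.9% lower). The input libraries also entered the choice of the peaks, so nothing is read from the hosts' share. The split moved with the scaling of the libraries: quantile normalization gave 14 higher and 8 lower hosts, and scaling to the same FPKM sum gave 29 and 5. The latter moved the median log2 difference of all genes from 0.04 to 0.17 and their calls from 499 higher and 653 lower to 698 and 486.

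The median log2 difference was 0.21 over the hosts, 0.18 over the other genes with a differential peak and 0.04 over all genes tested. Libraries of the ages did not overlap for 71 hosts with higher values in the M group and 25 with lower ones, beside 19.8% and 13.9% of all genes. By class, 9 of 84 tested hosts of 5′ UTR peaks were higher and 2 lower. For exon 1 of transcripts with more exons these were 6 and 3 of 133, and for single-exon transcripts 7 and 2 of 58. By the same call, 4.01% of all genes tested were higher and 5.25% lower. Of the 43 hosts with another differential peak elsewhere, 6 were higher and 0 lower (median 0.53). In this last group, 19 hosts passed an unadjusted p under 0.05 in limma and all 19 were higher, beside 14.2% higher and 10.9% lower of all genes.

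**Figure D3:**
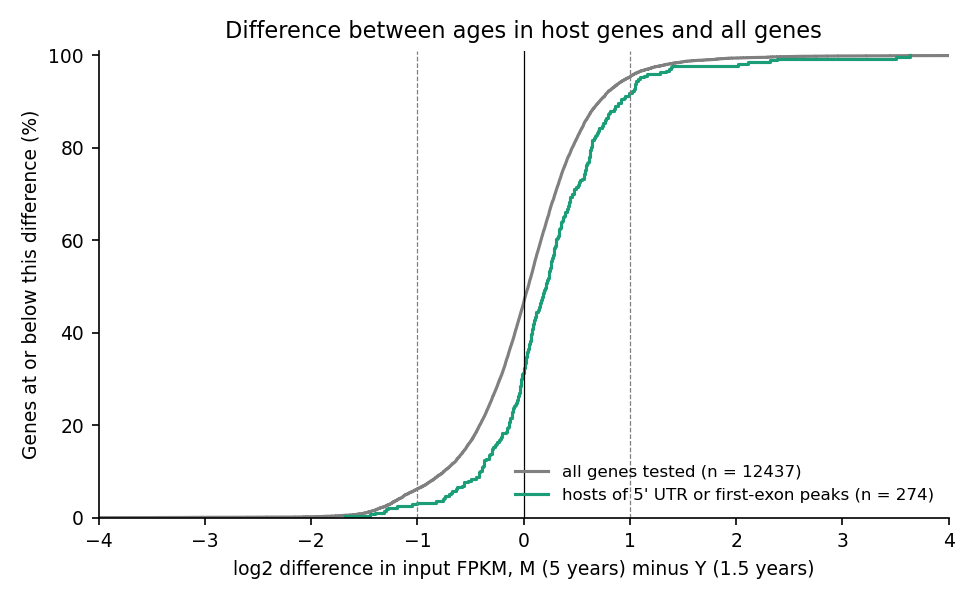
Percent of genes (vertical axis) at or below a given log2 difference in input FPKM, M group minus Y group (horizontal axis), for the 274 hosts tested and for all 12437 genes tested, with dashed lines at -1 and 1. The host curve lies to the right of the curve of all genes around 0, with medians of 0.21 and 0.04.

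The 6 largest differences upwards among hosts whose libraries did not overlap follow. SLITRK2 (ENSBGRG00000012655, shared symbol), a neuronal transmembrane protein on the X chromosome with a single-exon peak 298 bp from the start, had FPKM of 0.0809, 0.0776 and 0.0555 in the Y group and 2.58, 1.24 and 2.58 in the M group. It was near 0 in every Y library, and its log2 difference was 3.63 (SE 0.39, adjusted p = 0.058 in limma).
FREM2 (shared symbol) had 0.363, 0.0694 and 0.101 in the Y group and 5.10, 1.57 and 2.54 in the M group. This gene with 3 exon 1 peaks was under 0.5 in all Y libraries and above 1 in all M libraries, a log2 difference of 3.50 (SE 0.54, adjusted p = 0.13 in limma).

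The host listed as TACC1 (ENSBGRG00000015777, shared symbol), with a peak 440 bp from the start in the first of 2 exons, had 0.522, 1.57 and 0.95 in the Y group and 6.25, 4.36 and 5.39 in the M group. Its log2 difference was 2.38 (SE 0.36, adjusted p = 0.13 in limma). FAM20C (shared symbol), with peaks at both ends, had 1.63, 1.71 and 1.74 in the Y group and 13.4, 5.60 and 9.17 in the M group. The Y libraries of FAM20C lay close together and the M libraries were spread, and the log2 difference was 2.32 (SE 0.30, adjusted p = 0.13 in limma).

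FAM181B (ENSBGRG00000021220, shared symbol) had 0.622, 1.25 and 0.944 in the Y group and 5.31, 2.97 and 4.81 in the M group, a log2 difference of 2.11 (SE 0.31, adjusted p = 0.13 in limma). Its 2 overlapping peaks are in an exon of a second identifier under the same symbol, which had at most 0.622 in any library. FAM43A, whose single-exon peak lies 342 bp from the start, had 0.275, 0.671 and 1.05 in the Y group and 3.27, 2.03 and 2.96 in the M group. That is a log2 difference of 2.01 (SE 0.42, adjusted p = 0.15 in limma).

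Lower values in the M group were smaller in size. The host listed as ANO10 (shared symbol), with a gene of 402 bp under a 5′ UTR peak of 165268 bp, had 12.4, 10.8 and 11.5 in the Y group and 3.69, 2.35 and 5.01 in the M group. Its log2 difference was -1.69 (SE 0.26, adjusted p = 0.13 in limma). The host listed as ZNF512 (ENSBGRG00000008078, shared symbol), with 2 single-exon peaks, had 9.43, 8.79 and 11.0 in the Y group and 2.22, 7.26 and 2.92 in the M group. M replicate 2 was near the Y group, and the log2 difference was -1.39 (SE 0.40, adjusted p = 0.15 in limma).

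TEKT5, a tektin of the sperm flagellum, had 14.6, 10.3 and 14.5 in the Y group and 3.29, 9.93 and 4.15 in the M group, a log2 difference of -1.32 (SE 0.40). M replicate 2 lay just below the lowest Y library. Its exon 1 peak lies 98 bp from the start and is 7954 bp wide. ASAP2, a GTPase-activating protein for Arf and the only gene both among the highest 5′ UTR hosts and among these 12, had 20.7, 19.2 and 22.2 in the Y group and 4.77, 14.8 and 8.51 in the M group. All 3 M libraries were below the Y libraries, with a log2 difference of -1.28 (SE 0.37).

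MYORG, a glycosidase, had 6.10, 5.38 and 5.29 in the Y group and 1.44, 3.81 and 2.46 in the M group, a log2 difference of -1.19 (SE 0.32). FAM214B had 7.42, 9.94 and 10.3 in the Y group and 2.48, 5.12 and 6.41 in the M group, a log2 difference of -1.05 (SE 0.34). The adjusted p in limma was 0.15 to 0.16 for TEKT5, ASAP2, MYORG and FAM214B. Without M replicate 1 the calls of ASAP2, MYORG and FAM214B were lost, and that of FAM214B also without Y replicate 2 or Y replicate 3.

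**Figure D4:**
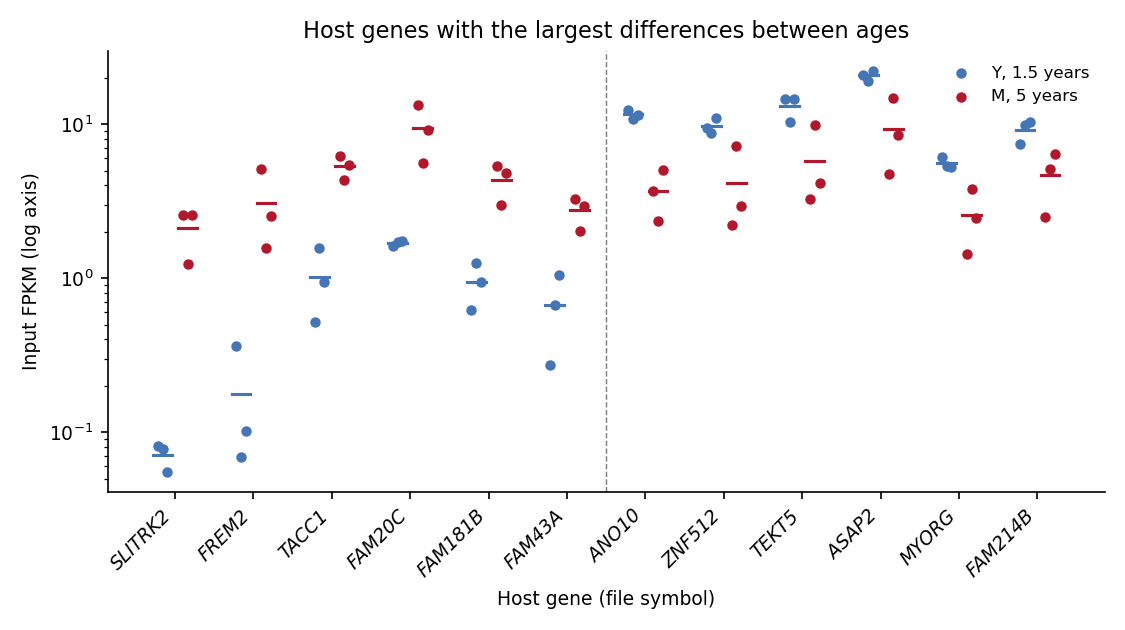
Input FPKM (vertical axis, log scale) of the 12 hosts named above (horizontal axis) in each of the 3 Y libraries (1.5 years) and 3 M libraries (5 years), with a short line at the group mean and a dashed line between higher and lower genes. Points of the ages do not overlap for any of the 12, and M libraries are spread more than Y libraries for FAM20C, ASAP2 and TEKT5.

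The older testes were not alike in these genes. Among the 22 higher hosts, M replicate 1 was the library farthest from the Y group in 18 and M replicate 2 the nearest in 21. Among the 7 lower hosts these were 5 and 5. Over all genes called higher, M replicate 1 was farthest in 83.8% and M replicate 2 nearest in 82.8%. Over all genes called lower these shares were 90.5% and 81.6%. Without M replicate 1, 13 hosts were called in place of 29, and without M replicate 2, 50 were called. Of the 29, 13 kept the call with any 1 library left out (10 higher, 3 lower): the 6 upward genes above, DDAH1, EDNRA, SOWAHD and TRIB2, and ANO10, ZNF512 and TEKT5. The other 16 lost it without M replicate 1.

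Sums of some cell type markers differed between ages in the same libraries, while others overlapped. The summed FPKM of elongating spermatid markers was 1154 to 1195 in the Y libraries and 263 to 849 in the M libraries, with 4 of 4 tested markers lower in the M group. Most of that sum was TNP1 (means 871 and 464). For round spermatid markers the sum was 213 to 289 and 75.9 to 228, with 2 of 5 lower. The elongating spermatid sums did not overlap and were higher at the age given as before sexual maturity, while the round spermatid sums overlapped. Sertoli cell markers summed to 73.7 to 86.6 and 108 to 257 with 0 of 6 called, and most of the sum was INHA (means 62.1 and 131). Still, each of the 6 was higher in every M library than in any Y library, as were 19.8% of all genes tested. The log2 differences of these 6 markers, 0.60 to 0.98, were under the limit of the call. The unadjusted p was 0.0057 to 0.028 and the adjusted p 0.15 to 0.17 in limma. Peritubular and stromal markers summed to 21.8 to 25.2 and 32.0 to 53.0 with 2 of 8 higher. Macrophage markers summed to 14.1 to 23.2 and 31.2 to 43.0 (2 higher and 1 lower of 6), Leydig cell markers to 12.7 to 21.7 and 11.2 in each M library (0 of 3), and spermatocyte markers to 93.0 to 97.6 and 78.2 to 96.7 (0 of 8). The Leydig markers went different ways. STAR had 8.60 to 15.4 in the Y libraries and 4.83 to 6.30 in the M libraries. NR5A1 was higher in every M library than in any Y library, and CYP11A1 overlapped. Spermatogonial markers summed to 62.8 to 69.0 and 74.2 to 142 (1 higher of 7) and endothelial markers to 7.17 to 9.55 and 8.32 to 11.7 (0 of 4). The 2 erythroid markers in the table were under the filter, with sums of at most 0.863. The part of these shifts in the host gene differences was not tested. Of all genes tested, 4.01% were called higher and 5.25% lower.

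Hosts of 5′ UTR or first-exon peaks were 1.35% of all genes in the FPKM table and 2.20% of the genes tested. On the signalling and regulatory lists, such a peak was found in 3 of 35 listed genes of TGF-beta, BMP and SMAD signalling, 3 of 69 chromatin regulators, 1 of 31 Notch genes, 1 of 37 WNT genes, 1 of 19 m6A and m6Am enzymes and readers and 1 of 7 spermatogonial markers. Neither the immediate early and growth response genes (0 of 35) nor the translation initiation factors (0 of 22) had one. Where a symbol stands on several identifiers, the one with such a peak was taken first, which raises these counts. Over symbols on 1 identifier the counts were 3 of 27 for TGF-beta genes, 1 of 47 for chromatin regulators, 1 of 20 for Notch, 1 of 25 for WNT, 1 of 14 for m6A enzymes and readers, 1 of 4 for spermatogonial markers, 0 of 26 for immediate early genes and 0 of 13 for initiation factors. Between ages, 1 of 33 tested TGF-beta genes was higher and 0 lower (median log2 difference 0.34). For WNT genes these were 2 and 1 of 32 (median 0.25), for Notch 4 and 1 of 27 (0.08), and for immediate early genes 2 and 2 of 27 (0.41). In the chromatin (67 tested, median 0.10), m6A (19 tested, 0.18) and translation initiation (21 tested, -0.04) lists no gene passed the call. The median over all genes tested was 0.04, with 4.01% called higher and 5.25% lower.

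The TGF-beta hosts act at different steps. INHBA had 2.60, 2.53 and 2.17 in the Y group and 5.75, 3.03 and 4.46 in the M group, with the ages apart and a log2 difference of 0.79 (SE 0.24). SMAD7, an inhibitory SMAD with an exon 1 peak 636 bp from the start, had 1.53, 1.22 and 1.04 in the Y group and 3.16, 1.47 and 3.13 in the M group, a log2 difference of 0.92 (SE 0.33). Its M replicate 2 overlapped the Y group. SMURF2, a ubiquitin ligase that acts with SMAD7 on the receptor and has a 5′ UTR peak 396 bp from the start, ranged from 8.15 to 9.47 over all libraries, with a log2 difference of -0.04 (SE 0.13). None of these 3 passed the call.

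FZD1, a WNT receptor with a single-exon peak 199 bp from the start, had 3.40, 1.10 and 2.13 in the Y group and 8.82, 2.99 and 5.78 in the M group. It passed the call with a log2 difference of 1.37 (SE 0.49, adjusted p = 0.17 in limma), although its libraries overlapped, and the call was lost without Y replicate 2, Y replicate 3, M replicate 1 or M replicate 3. MAML1 had a log2 difference of -0.05 (SE 0.15). ZBTB16, which maintains spermatogonial stem cells and has an exon 1 peak 129 bp from the start, had 1.05, 1.26 and 1.27 in the Y group and 1.69, 1.10 and 1.57 in the M group, with overlapping libraries. METTL5 stayed between 2.70 and 3.28 in all libraries. Among chromatin regulators ARID1A had a log2 difference of 0.09 (SE 0.14), CHD9 0.31 (SE 0.17, shared symbol) and the host listed as PHF8 0.62 (SE 0.39, shared symbol).

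Other hosts form groups that were picked after their values were seen, and are given as examples. NR3C1, the glucocorticoid receptor, has an exon 1 peak 535 bp from the start. NR3C1 had 2.34, 2.51 and 3.04 in the Y group and 5.34, 3.02 and 3.88 in the M group, with M replicate 2 inside the Y range and a log2 difference of 0.59 (SE 0.23). It was under the 2-fold limit of the call.

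Cell cycle hosts include CDKN1B, a cyclin-dependent kinase inhibitor with an exon 1 peak 195 bp from the start, and the kinases CDK8, CDK12 (shared) and CDK13. CDKN1B had 4.37, 4.29 and 3.84 in the Y group and 9.68, 6.06 and 6.76 in the M group, with the ages apart and a log2 difference of 0.81 (SE 0.20). The 3 kinases differed by 0.05 to 0.24 on the log2 scale. Meiotic hosts with exon 1 peaks were MEIKIN, a kinetochore protein of meiosis, at 49 bp and MLH3, which acts in crossovers, at 2823 bp, with log2 differences of -0.16 (SE 0.21) and 0.08 (SE 0.17). TAF4B had 4.99, 5.33 and 4.59 in the Y group and 9.85, 6.70 and 7.44 in the M group, with the ages apart and a log2 difference of 0.66 (SE 0.18).

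Among potassium channel hosts, KCNA4 passed the call. It had 2.23, 1.72 and 1.98 in the Y group and 5.42, 2.94 and 4.47 in the M group, a log2 difference of 1.04 (SE 0.25, adjusted p = 0.15 in limma), and lost the call without Y replicate 2, M replicate 1 or M replicate 3. KCNA3 had a log2 difference of 0.57 (SE 0.32) and KCNG3 of 0.003 (SE 0.16). CMTR2, which methylates the second transcribed nucleotide of capped mRNA, has a peak 299 bp into its single exon and had a log2 difference of 0.38 (SE 0.21). The cholesterol synthesis hosts SQLE and FDFT1 had log2 differences of -0.04 (SE 0.20) and -0.26 (SE 0.22).

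Other hosts passed the call upwards with libraries apart. DDAH1, which breaks down inhibitors of nitric oxide synthase, had 4.94, 4.17 and 3.35 in the Y group and 12.8, 8.92 and 10.2 in the M group, a log2 difference of 1.34 (SE 0.21, adjusted p = 0.13 in limma). EDNRA (shared symbol), an endothelin receptor, had 2.19, 2.02 and 2.00 in the Y group and 4.92, 4.16 and 4.54 in the M group, a log2 difference of 1.10 (SE 0.15). Also called higher with libraries apart were TMEM51, TRIB2, SOWAHD, ITPKB, 2-Mar (shared, a spreadsheet date, described as mitochondrial amidoxime reducing component 2), TRIM56, DMRTC2 (shared), C7orf26 (shared), SH3BP4, PTPRM (shared) and HOMER1, with log2 differences of 1.05 to 1.40. CLIC1 (shared), called higher, and MBD3L1 (shared), called lower, had overlapping libraries. Of the 29 called hosts, 15 have a symbol of their own, 11 higher and 4 lower.

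Gene Ontology terms of the hosts were counted for the 255 with any term. The most frequent were nucleus (99 hosts, 38.8%, 95% Wilson interval 33.1 to 44.9%), metal ion binding (78), cytoplasm (65), cytosol (40), integral component of membrane (39), plasma membrane (36), nucleoplasm (31) and DNA binding (30). Cytoplasm was held by 25.5% of hosts and 28.3% of genes tested, and cytosol by 15.7% of each. For metal ion binding these shares were 30.6% and 26.3%, and for integral component of membrane 15.3% and 12.1%. They were 14.1% and 9.66% for plasma membrane and 12.2% and 10.7% for nucleoplasm. Nucleus was held by 39.0% of all genes with a differential peak and 33.3% of genes tested, and DNA binding by 11.8% of hosts, 11.97% of genes with a differential peak and 7.01% of genes tested. The hosts of highest level listed with nucleus were ZNF628, ASAP2, DONSON and TSC22D1, and those listed with DNA binding were ZNF628, ARID1A, GAB3 and ZNF146. These terms are given as listed and need not describe the protein of the symbol. DNA recombination and RNA-directed DNA polymerase activity each stood on 36 hosts, among them RABL3, HABP4 and CACUL1. RNA-directed DNA polymerase activity stood on 3523 of the 18079 genes of the table with any term. On RABL3, HABP4 and CACUL1 it does not match what is known of the symbol. Protein kinase binding was held by 12 hosts (4.71%), beside 2.71% of genes with a differential peak and 1.45% of genes tested, with CDKN1A and GSKIP among them. These shares carry no test.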

How the data were processed

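Testes of 3 yaks per age gave 12 libraries, grouped by the age in their titles. Differential peaks were used as deposited: the authors cleaned the reads (Trimmomatic, SortMeRNA for rRNA), kept unique HISAT2 alignments (2.0.4 in the submitters' processing notes) to LU_Bosgru_v3.0 of Ensembl release 99, called and compared peaks with MeTDiff (p of at most 0.05, fold of at least 1.5) and annotated them with ChIPseeker. How replicates entered is not stated. The FPKM values were deposited by the authors, 1 per gene and input library; the program is not given in the sources used here. FPKM sums were 116187 to 139921 per library, genes at 0 numbered 4563 to 4660, and relative depth from the steps of low values was 0.993 to 1.09 of Y replicate 1. Fragment numbers are unknown, so no limit was set for a value of 0. IP levels and the separate peak lists of each age, held here only as their first lines, were not analysed here.

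Peaks annotated as 5′ UTR or as exon 1 were kept. Input libraries were compared with limma 3.58.1 (R 4.3.3; lmFit, eBayes with trend; two-sided; Benjamini-Hochberg) on log2(FPKM + 0.1) over genes with a mean of at least 0.5. The fit was tested on simulated data. Named were the hosts with most peaks, the 8 highest of the 5′ UTR and of the exon 1 peaks, the 6 largest differences each way with libraries apart, the extreme peaks and list members. For a listed symbol on several identifiers, the one with such a peak, then with any differential peak, then with the highest level was taken. Members, lists and rules were chosen with earlier results of these data known. p-values measure the spread between 3 animals per age. Wilson intervals cover counting error only. Python 3.11.15, pandas 2.3.3, scipy 1.17.1 and matplotlib 3.10.9 were used. Alternatives were other pseudocounts, filters, scalings, thresholds and sets of hosts, a replicate block and leaving out each library. One host gene is not reported here.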

Additional observations from a re-analysis of the deposited data

How the results depend on the processing

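The count of 29 called hosts (22 higher, 7 lower) was most open to the pseudocount, the fold limit and single libraries. With a pseudocount of 1 it was 15 (10 higher), and with a 1.5-fold limit 72 (59 higher, 13 lower). Quantile normalization left 14 higher hosts. Leaving out each library gave 13 to 50 calls, 10 to 38 higher and 3 to 12 lower. Fewer hosts gave 11 calls for 5′ UTR peaks only (9 higher, 2 lower) and 4 lower hosts for peaks of at most 1000 bp. Over the 29 single genes, 382 of 406 alternative values kept direction and side of p 0.05, 24 passed p 0.05 no longer and 0 reversed. The full call, which also needs the 2-fold limit, was lost in 66 of the 406, 41 of them with 1 library left out. In the paired analysis with the replicate block, 30 hosts were called (22 higher, 8 lower). Deviations of same-numbered animals correlated at -0.022, -0.091 and 0.0067, and those of differently numbered animals at -0.13 to 0.14. These values show no pairing by number, but with 3 libraries per age they cannot exclude it. The share of peaks within 1000 bp of the start was 72.0%, and 64.4% for 5′ UTR peaks only. The share of hosts with the term nucleus differed from that of genes with a differential peak by -0.18 points and from that of all genes by 10.4 points. Without peaks in an exon of another gene, an alternative chosen after seeing the data, the share within 1000 bp was 76.1%. Peak sequences were not analysed here, so the planned motif counts were not run.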
